A study of Mus musculus with 4 samples.

Results

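Circular RNAs (circRNAs) of the terminal sac mouse lung were compared with those of the canalicular lung. Both lungs came from C57BL/6 mice, the first at embryonic day 18.5 and the second at embryonic day 16.5, with 1 total RNA library each. A circRNA entered the comparison when it had 10 or more junction reads, which cross the back-splice, in these 2 libraries together. This rule kept 1208 circRNAs of 8667 listed in the 2 libraries and of 13499 listed in the whole series. The kept circRNAs held 62.9% of the junction reads of the canalicular library and 62.0% of those of the terminal sac library. The series also holds a pseudoglandular library (embryonic day 14.5) and an alveolar library (newborn day 7.5), which are given here as context. The labels do not state the number of animals behind a library, and no library had a replicate.

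CircRNAs form when a splice donor joins to an acceptor upstream of it, so that 1 or more exons close into a ring with no free ends. Having no ends, they are known to resist exonucleases and to last longer than the linear RNA of the same gene. In the canalicular stage the distal airways widen and thin while capillaries grow against them. In the terminal sac stage the airspaces form sacs, type 2 cells make surfactant and its lamellar bodies, and cell division in the distal lung slows before birth.

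Sequences at the junctions of circles on which the results turn are shown first, since each names one ring of its host gene. Every sequence is written in the sense of the gene from GENCODE M21 transcripts of the mm10 build. Its 30 lower-case letters are the end of the last exon of the ring, and its 30 capitals are the start of the first exon, to which the last one is joined. The pairs from Mkln1 and Sp3 each share the first exon and differ in the last. The 2 Gbe1 circles share the last exon and begin at acceptors 4 bases apart, so that the capitals of the second start 4 letters further on. The Rras2, Lamp3, Mkln1 exons 2 to 8 and Gbe1 circles were higher in the terminal sac library, the Ascc2 and Sp3 exon 4 circles were lower, and the Bub1b circle did not pass in share while its linear reads were lower. The ends lie at chr2:118631759-118635277 for Bub1b, chr7:114058540-114060419 for Rras2, chr16:19673391-19701382 for Lamp3 and chr11:4646562-4649869 for Ascc2. Those of Gbe1 are chr16:70433545-70441319 and chr16:70433549-70441319.
Bub1b exons 17 to 19: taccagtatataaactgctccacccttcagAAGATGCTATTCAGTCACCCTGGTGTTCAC
Rras2 exons 2 to 4: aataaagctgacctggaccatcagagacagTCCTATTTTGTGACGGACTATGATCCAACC
Lamp3 exons 2 to 5: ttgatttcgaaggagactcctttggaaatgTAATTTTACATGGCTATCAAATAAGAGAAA
Mkln1 exons 2 to 8: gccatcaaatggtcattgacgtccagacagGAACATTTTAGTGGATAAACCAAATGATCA
Mkln1 exons 2 to 6: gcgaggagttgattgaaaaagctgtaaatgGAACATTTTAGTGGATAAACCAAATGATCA
Ascc2 exons 3 to 5: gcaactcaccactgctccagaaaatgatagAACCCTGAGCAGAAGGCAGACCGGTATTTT
Sp3 exon 4: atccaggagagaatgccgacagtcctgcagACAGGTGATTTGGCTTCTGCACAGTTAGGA
Sp3 exons 4 to 5: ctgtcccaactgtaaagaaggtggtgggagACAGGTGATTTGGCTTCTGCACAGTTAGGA
Gbe1 exons 4 to 7, first acceptor: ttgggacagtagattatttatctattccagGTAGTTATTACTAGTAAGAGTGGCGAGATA
Gbe1 exons 4 to 7, second acceptor: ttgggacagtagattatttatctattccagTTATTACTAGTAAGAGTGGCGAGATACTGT

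The canalicular library listed 4947 circRNAs with 31218 junction reads, and the terminal sac library 5564 with 36156. In each of the 4 lists 37.4% to 41.5% of circRNAs stood at 2 reads, the least listed, so absence from a list says little at this depth. Levels are given as shares of a library's listed junction reads. A circRNA is called higher or lower when its share differed 2-fold or more between the libraries and the exact binomial 95% interval of the ratio excluded 1. These intervals cover counting error only, PCR copies are not independent molecules, and with 1 library per stage the comparison is of libraries and carries no p-value. Where a list lacked a circRNA, 3 reads were put in its place. The fold is then a lower bound if that library had 3 or fewer reads at exactly those ends, which the files do not show, since the caller's filters are not stated and reads at ends a few bases away are listed apart. A circRNA is called doubtful where its ends share a direct repeat of 6 or more bases in the transcript, or where its reads had few distinct alignment patterns, and 36 of the 1208 are of that kind.

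Of the 1208 circRNAs, 1089 were listed in both libraries, 49 in the canalicular library and not the terminal sac library, and 70 the other way round. The share was higher in the terminal sac library for 108 (8.94%) and lower for 135 (11.2%), and 965 did not pass. The median log2 ratio over all of them was -0.02. The 108 higher circles went from 1.71% of the canalicular junction reads to 9.09% of the terminal sac reads, and the 135 lower circles from 9.89% to 2.39%. Of the higher circles 101 were of the exon type and 8 were doubtful, and of the lower circles 123 were of the exon type and 7 were doubtful. When the libraries were scaled instead by the non-junction reads of shared circRNAs, all log2 ratios shifted up by 0.54, and 265 circRNAs were higher and 57 lower.

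**Figure D1:**
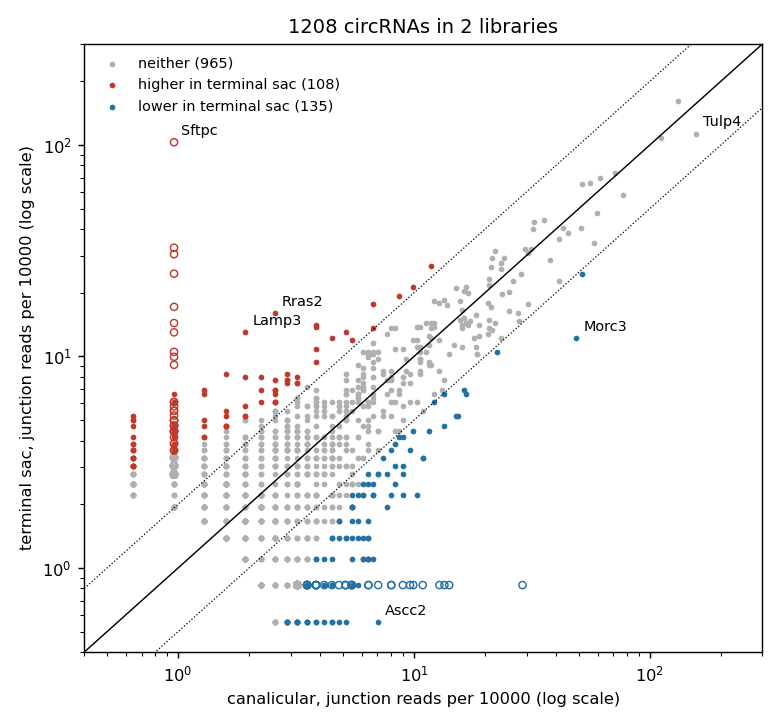
Junction reads per 10000 listed junction reads of 1208 circRNAs in the canalicular (x axis) and terminal sac (y axis) libraries, both on log scales. The solid line marks equal shares and the dotted lines 2-fold, open circles are circRNAs listed in 1 of the 2 libraries and drawn at 3 reads for the other, and colours mark the 108 higher and 135 lower circRNAs.

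Among higher circles listed in both libraries, 12 were taken by the lower end of their interval, and their hosts have varied functions. The circle of Rras2, a small GTPase of the Ras superfamily, had 16, 8, 58 and 19 junction reads in order of stage. Its share was 6.26-fold higher in the terminal sac library (95% interval 2.98 to 15.2), which stood above the other 3 libraries. The circle of Lamp3, a membrane protein of lamellar bodies, had 0, 6, 47 and 83 reads and was 6.76-fold higher (2.89 to 19.4), so it went on rising into the alveolar library. The Mkln1 circle of exons 2 to 8, from the gene of muskelin, had 6, 3, 24 and 14 reads and was 6.91-fold higher (2.10 to 35.8). The Mkln1 circle of exons 2 to 6, which shares the same first exon, had 25, 36, 34 and 20 reads and did not pass. Of these rings, which begin at the same acceptor, only the longer was called.

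Crebrf, which regulates a CREB family factor, had a circle with 9, 12, 50 and 22 reads, 3.60-fold higher (1.89 to 7.42). The circle of Nfkb1, an NF-kappaB subunit, had 16, 4, 25 and 15 reads and was 5.4-fold higher (1.86 to 21.3). Here the canalicular count was the lowest of the 4. It was also the lowest for Rbm33, an RNA-binding protein, with 17, 2, 19 and 6 reads, and for Dennd1b, an exchange factor for Rab GTPases, with 11, 3, 22 and 13 reads. Nemf, a factor of ribosome quality control, had 12, 2, 18 and 3 reads. In contrast, the Rmdn2 circle, from a gene of microtubule dynamics, was low at first and stayed high, with 3, 12, 51 and 47 reads (3.67-fold, 1.93 to 7.56). Arhgap32, a GTPase-activating protein, peaked in the terminal sac library with 8, 5, 30 and 3 reads (5.18-fold, 1.99 to 17.1). The remaining circles of this group, from Ncoa3, a nuclear receptor coactivator, and Tmem56, had 3, 4, 24 and 12 reads and 0, 2, 18 and 11 reads.

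The lower circles were led by Ascc2, a gene of the activating signal cointegrator complex, with 2, 22, 2 and 4 reads. Its circle of exons 3 to 5 was 12.7-fold lower in the terminal sac library (3.13 to 112) and stood high in the canalicular library alone. Morc3, a nuclear ATPase gene, had 84, 152, 44 and 0 reads at chr16:93847276-93853217, 4.0-fold lower (2.84 to 5.73). Another Morc3 circle, of exons 6 to 8, moved the other way with 3, 12, 34 and 19 reads. The circle of Pikfyve, a phosphoinositide kinase of endosomes, had 11, 21, 4 and 0 reads and was 6.08-fold lower (2.05 to 24.4). Rere, a corepressor of nuclear receptors, had 4, 16, 2 and 0 reads in its circle of exons 2 to 7, and Smg6, the endonuclease of nonsense-mediated decay, had 9, 14, 2 and 0. The 4 lower circles of Morc3, Pikfyve, Rere and Smg6 were not listed in the alveolar library.

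The circle of Sp3 exon 4, from a transcription factor gene, had 17, 18, 3 and 5 reads and was 6.95-fold lower (2.03 to 36.8). A pair of lower circles returned towards their earlier level in the alveolar library, Tmem132d exon 2 with 11, 15, 2 and 10 reads and Ptpn14, a tyrosine phosphatase, with 8, 20, 4 and 17. Another pair was high in the canalicular library only, Cep192, a centrosome protein, with 3, 20, 4 and 3 reads and Fech, the last enzyme of haem synthesis, with 3, 20, 4 and 2. Prrc2b had 9, 17, 3 and 7 reads. The circle of Etv5, a transcription factor of distal lung epithelium under FGF signalling, had 0, 14, 2 and 0 reads and was 8.11-fold lower (1.86 to 73.5).

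**Figure D2:**
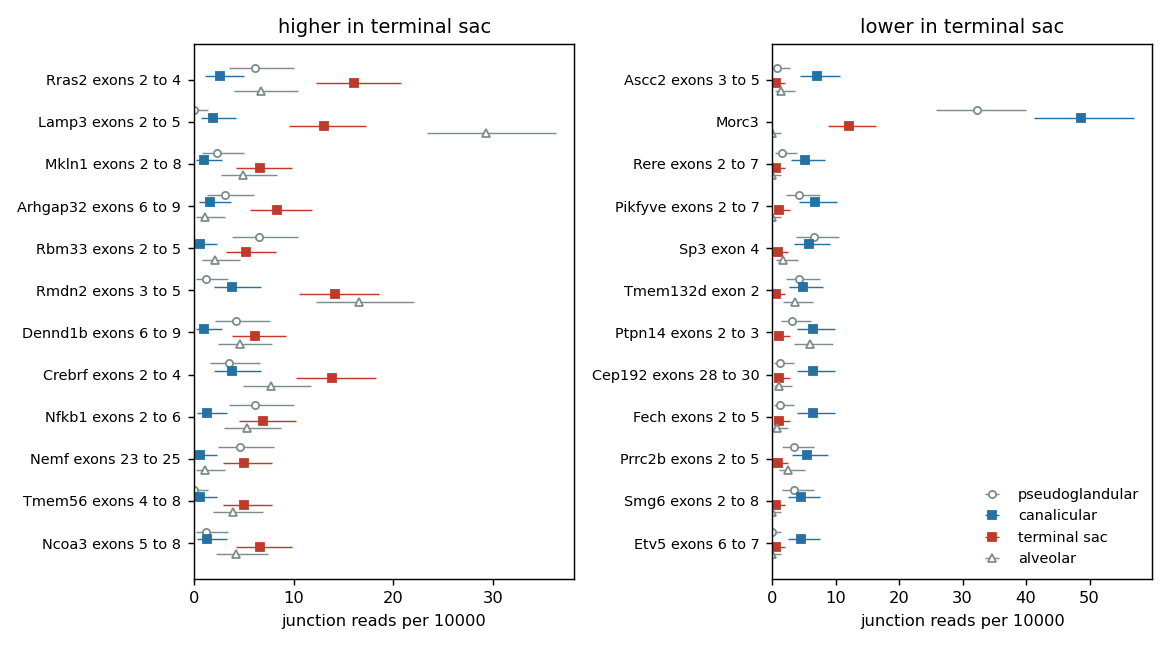
Junction reads per 10000 for the 12 higher and 12 lower circRNAs listed in both libraries whose interval ends lay farthest from 1, with exact 95% binomial intervals of counting error in each of the 4 libraries. Rras2 and Arhgap32 peak in the terminal sac library, Lamp3 and Rmdn2 are as high or higher in the alveolar library, and Morc3 falls from the canalicular library to 0 reads in the alveolar library.

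Circles listed in 1 of the 2 libraries made up 32 of the 108 higher and 34 of the 135 lower calls. Their leading members included 4 doubtful higher circles, from Sftpc, Col4a1, Gm20425 and Os9, and 4 doubtful lower ones, from Col4a1, Slc38a5, Chd4 and Gpbp1. The Sftpc circle, from the gene of surfactant protein C, had 0, 0, 372 and 521 reads, with 24 distinct alignment patterns behind them. It was 107-fold higher with 3 reads put in place of its canalicular count. The Nlrp5-ps circle had 118 reads in the terminal sac library alone, but with junctions within 5 bases of each other merged, the same locus had 159 canalicular and 265 terminal sac reads, 1.44-fold higher (1.18 to 1.76) and below the 2-fold threshold. Of the called circles, 17 higher and 17 lower were listed in none of the other 3 libraries, and 6 and 6 of these were doubtful.

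The circles with most reads, apart from that of Sftpc, did not reach 2-fold. The Col4a1 circle of exons 35 to 39, of a basement membrane collagen and doubtful by its patterns, had 277, 412, 583 and 722 reads, 1.22-fold higher in the terminal sac library (1.08 to 1.39). Tulp4 had 450, 488, 409 and 489 reads, 1.38-fold lower in the terminal sac library (1.21 to 1.58). Strn3 exons 2 to 7, from a striatin gene of phosphatase and kinase complexes, had 247, 349, 389 and 268 reads with a ratio of 0.962 (0.831 to 1.12). The Zfp827, Ube2k and Phf21a circles had ratios of 1.03, 1.14 and 1.18. Mettl9 had 178, 240, 210 and 115 reads, 1.32-fold lower (1.10 to 1.60), and Nfix exon 2 had 120, 186, 172 and 199, 1.25-fold lower (1.01 to 1.55). Ttc3 had 175, 161, 235 and 95 reads, 1.26-fold higher (1.03 to 1.55). For Tulp4, Mettl9, Nfix and Strn3 even the direction depends on the scaling, since all 4 were higher in the terminal sac library when scaled by non-junction reads, with log2 ratios of 0.07, 0.13, 0.21 and 0.48.

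The called circles were also followed in the other pair of libraries, the alveolar against the pseudoglandular, which shares no library with the first. Of the compared circRNAs, 681 had 10 or more reads in that pair too, with a median log2 ratio of -0.12. The 63 that were higher in the terminal sac library had a median log2 ratio of 0.68 there, and 42 of them (66.7%) were above 0. The 78 lower ones had a median of -0.67, with 16 (20.5%) above 0. Among the 540 that were not called, the median was -0.12 and 47.2% were above 0.

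Called circles differed in length. The spliced length is the sum of M21 exons between ends that both lie at exon boundaries, and skipped or retained sequence within a ring cannot be seen in these files. Its median was 488 bases for 87 higher circles, 609 for 875 that were not called and 786 for 113 lower circles. Of 214 circles of 1000 bases or more, 9 (4.21%) were higher and 43 (20.1%) lower, against 49 (10.6%) and 33 (7.11%) of the 464 circles of 300 to under 600 bases. The long circles had a median log2 ratio of -0.36 and the circles of 300 to under 600 bases 0.16. In the alveolar library against the pseudoglandular one, the medians of the same bins were -0.54 over 173 circles and 0.07 over 348. The median of the long rings was below 0 in both pairs. Non-junction reads at the same circles fell alike in both bins, with median log2 changes of -0.36 and -0.36. The share of circles that begin at exon 2 was 44.8% of the higher, 43.3% of the lower and 41.8% of the other circles.

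**Figure D3:**
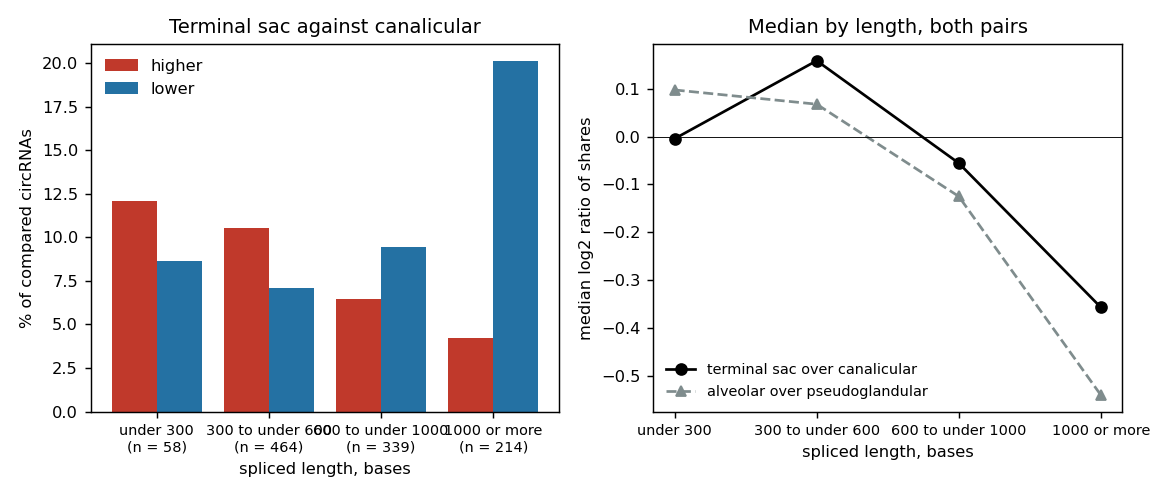
Left, percentage of compared circRNAs called higher or lower in the terminal sac library, by spliced length in bases (58, 464, 339 and 214 circles). Right, median log2 ratio of shares in the same bins for the terminal sac over the canalicular library and for the alveolar over the pseudoglandular library, lowest in both pairs for circles of 1000 bases or more.

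The junction ratio sets the reads of a ring against the linear reads at the same splice ends. It is the deposited value of junction reads times 2 over that sum plus the non-junction reads. Over the 1089 circRNAs listed in both libraries its median was 4.8% in the canalicular and 6.7% in the terminal sac library. It was higher in the terminal sac library for 764, lower for 312 and equal for 13. The odds of junction to non-junction reads rose by a median of 0.56 on the log2 scale. The interval of the odds ratio lay above 1 for 255 circRNAs (23.4%) and below 1 for 31 (2.85%).

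The rise went with lower non-junction counts. Raw non-junction reads were fewer in the terminal sac library at 841 of the 1089 circles (77.2%), with a median log2 change of -0.36. Raw junction reads had a median log2 change of 0.15, and their share of -0.06. Summed over all 1844 shared circRNAs, junction reads went from 21164 to 23137 and non-junction reads from 1158185 to 924259, a pooled ratio of 3.53% and then 4.77%. Over all circRNAs listed in either library, which are largely different circles in each, non-junction reads went up from 3128355 to 3799337 and the pooled ratio was 1.957% and then 1.868%, or 2.049% without the Sftpc circles. The pooled ratio thus rose at the shared circRNAs, while over the whole lists it fell with Sftpc and rose slightly without it. The median deposited ratio over all listed circRNAs was 0.021 in the canalicular and 0.027 in the terminal sac library. Among shared circles the rise of the odds was seen at every level of the ratio, with medians from 0.42 to 0.80 log2 over 7 bins of the pooled ratio. In bulk RNA, fewer cells of a type and less RNA per cell cannot be told apart, for the linear reads as for the rings. The files give no total of mapped linear reads, so non-junction reads here are those at listed circles.

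Single circles moved further. Eya3 exons 2 to 7, from a developmental phosphatase and coactivator gene, went from 7 to 29 junction reads while its non-junction reads went from 650 to 303. Its junction ratio was 2.1% and then 16.1%, an odds ratio of 8.43 (3.74 to 19). At the Rras2 circle the non-junction reads were 855 and 839, and the ratio went from 1.8% to 12.1%. Rras2 thus gained ring reads over an even linear count, while Eya3 moved in both. Ptbp3, a polypyrimidine tract binding protein, went from 1.1% to 6.4% with 1105 and 847 non-junction reads. The Arhgap32 ratio was 6.2% and then 36.8%, and the Mkln1 exons 2 to 8 ratio 1.2% and then 12%. Slc27a6, a fatty acid transport protein gene, went from 21 to 64 junction reads and from 4.2% to 15.6%.

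A few ratios went down against the general rise. The Morc3 ratio was 26.1% and then 9.2% with 862 and 869 non-junction reads, an odds ratio 3.45-fold lower (2.44 to 4.89). Pikfyve had 158 non-junction reads in both libraries and went from 21% to 4.8%. Ascc2 went from 8.1% to 1.0%, Fech from 3.9% to 0.8%, and Kansl1 exon 2, from a subunit gene of a histone acetyltransferase complex, from 15.0% to 5.4%. Mga, a MAX dimerization factor, went from 5.2% to 1.2%, 4932438A13Rik from 12.7% to 4.7% and Jup, plakoglobin of cell junctions, from 24.0% to 12.2%. Both ends of the Jup circle lie inside exon 14 and not at exon boundaries. The non-junction counts of these 8 circles differed less than their ring reads, and those of 4932438A13Rik, with 356 and 442, were the least even.

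In cell-cycle genes the linear reads were lower and the ring reads less so. The list of cell cycle and DNA replication genes had 15 circles in both libraries, from 9 hosts. Non-junction reads were lower at 15 of 15, against 77.2% of all shared circles, from 23559 to 6045 in sum, with a median log2 change of -1.66 against -0.36 for all shared circles. Junction reads of the same 15 circles went from 300 to 241. The median log2 change of the junction share was -0.21 against -0.06. The odds interval lay above 1 for 7 of 15 (46.7%) and below 1 for none, against 23.4% and 2.85% of all shared circles, with a median log2 odds of 1.45 against 0.56. Without the 5 circles of Ezh2, a histone methyltransferase that is also on the chromatin list, the median was 2.18 over 10 circles. These counts describe 1 library of each stage.

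Bub1b, a kinase-like protein of the spindle checkpoint, shows the pattern in full. The ring of its exons 17 to 19 gave 39, 50, 51 and 6 junction reads in order of stage, so the ring was even across the first 3 libraries and low in the alveolar one. The non-junction reads at its ends went from 1158 in the canalicular library to 256 in the terminal sac library. The junction ratio was 5.2%, 7.9%, 28.5% and 7.8% in order of stage, highest in the terminal sac library, with an odds ratio of 4.61 (3.05 to 6.95). Kif23, a kinesin of cytokinesis, had 7 and 12 junction reads over 1289 and 256 non-junction reads in the canalicular and terminal sac libraries. Tpx2, a spindle assembly factor, had 12 and 12 over 1767 and 398. Top2a, the topoisomerase of dividing cells, had 6 and 6 over 8777 and 1857, so at these 3 circles the linear counts were lower and the ring counts were not. Smc4, a condensin subunit, had 3 and 9 over 2203 and 978 at exons 9 to 13, and Ezh2 exons 2 to 8 had 16 and 25 over 1069 and 338. Single rings can differ from the sum over all rings of the gene. In sum, Smc4 had 46 and 29 reads, Ezh2 157 and 127, Top2a 17 and 11 and Tpx2 16 and 12. Kif23 had 10 and 24 in sum and Bub1b 61 and 68, and none of these sums passed.

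In other cell-cycle genes the rings were lower along with the linear reads. The Lmnb1 circle, of lamin B1, had 28 and 8 junction reads over 2792 and 623 non-junction reads, an odds ratio of 1.34 (0.62 to 2.89). Knl1 exons 10 to 13, from a kinetochore scaffold gene, had 20 and 6 over 498 and 157, an odds ratio of 1.0 (0.41 to 2.47). Host sums for the list are the sums over all rings of a gene. Of 17 compared hosts 0 were higher and 3 were lower, namely Knl1, Lmnb1 and Hells, the last a chromatin helicase, and scaled by non-junction reads Knl1 no longer passed. Over all hosts 12.4% were higher and 12.1% lower, so the list's 3 of 17 is near the background. Anln, an actin-binding protein of cytokinesis, had 10 and 0 reads and did not pass. The list's share of junction reads went from 1.64% (1.5 to 1.79) to 1.14% (1.03 to 1.25).

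**Figure D4:**
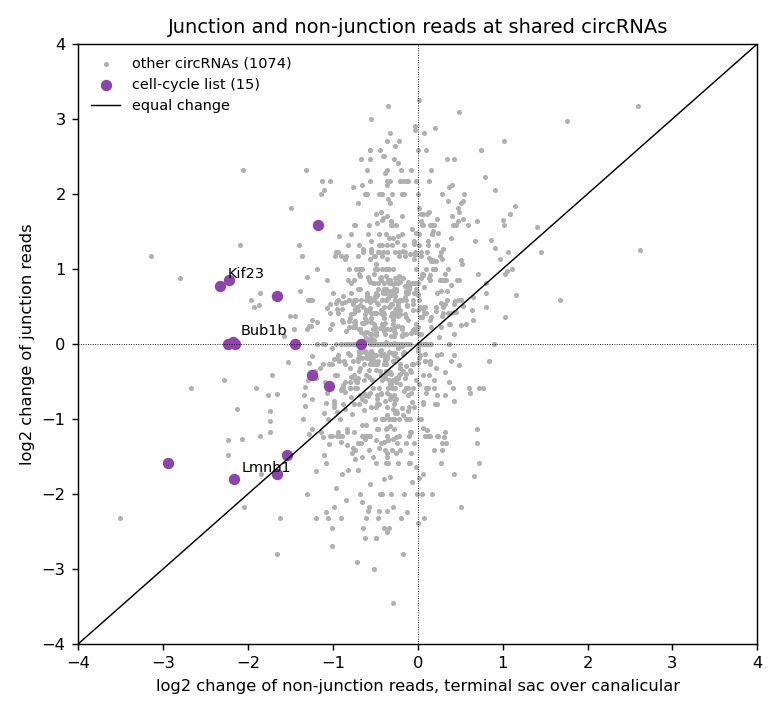
Change of raw junction reads (y axis) against change of raw non-junction reads (x axis) from the canalicular to the terminal sac library, both as log2, for 1089 circRNAs listed in both. Points above the line gained in junction ratio, and the 15 circles of the cell-cycle list (purple) all lie left of 0, with Bub1b and Kif23 above the line and Lmnb1 near it.

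Reads were summed over all rings of a host for 1236 host genes with 10 or more reads. Of these 153 were higher (12.4%) and 150 lower (12.1%) in the terminal sac library, while non-junction scaling gave 316 and 49. The median log2 ratio over all hosts was 0.02. Eln, the gene of elastin, had 3, 2, 51 and 1665 reads, 22.0-fold higher in the terminal sac library (5.79 to 187), and most of its reads came later, in the alveolar library. Without doubtful circles Eln had 2 and 12 reads in the canalicular and terminal sac libraries and stayed higher. Its alveolar reads were largely from doubtful circles. Prex2, an exchange factor for Rac that is on the endothelial list, had 2, 5, 55 and 63 reads, 9.50-fold higher (3.83 to 30.4), and its distinct rings went from 2 to 14. Dennd4a, an exchange factor for Rab GTPases, had 5, 4, 34 and 35 reads and went from 2 rings to 9. Tc2n went from 0 rings to 6, with 0 and 24 reads. Arhgap10 gained rings too, from 5 to 14, with 56 and 97 reads and a ratio of 1.5 (1.07 to 2.12), under the threshold. No ring with fewer than 2 reads is listed, so the few canalicular reads of Prex2, Dennd4a and Tc2n allowed few rings.

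Some hosts that were lower had fewer distinct rings as well, which for Trp53bp1 and Rad54b follows from their few terminal sac reads. Trp53bp1, the DNA repair factor 53BP1, had 2, 28, 3 and 6 reads, 10.8-fold lower (3.34 to 55.6), and went from 6 rings to 1. The helicase gene Rad54b of homologous recombination had 2, 17, 0 and 0 reads and went from 5 rings to 0. Vps54, a subunit of a Golgi tethering complex, had 15, 21, 2 and 5 reads, 12.2-fold lower (2.97 to 107), and Hnrnph3, an RNA-binding protein, had 2, 20, 2 and 6. Zfp407 had 37, 22, 3 and 0 reads. Nsd1, a histone methyltransferase, had 62 and 48 reads, 1.5-fold lower (1.01 to 2.23) and under the threshold, and went from 10 rings to 4.

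Of the genes tied to alveolar type 2 cells, 5 had enough reads, and 4 were higher and 1 lower, against 12.4% and 12.1% of all hosts, with a median log2 ratio of 2.11 against 0.02 for all hosts. The list's share went from 0.109% (0.075 to 0.152) to 1.37% (1.25 to 1.5), and 372 of its 496 terminal sac reads were those of the doubtful Sftpc circle. Leaving that circle aside, Lamp3 as a host had 0, 6, 64 and 110 reads. Atp8a1, a phospholipid flippase, had 2, 10, 31 and 12 (2.68-fold, 1.28 to 6.12). Cebpa, a transcription factor of epithelial maturation with a single exon, had 0, 0, 15 and 0 reads in 2 rings inside that exon. These Cebpa rings were not counted as doubtful, though a gene with a single exon has no annotated splice sites at such ends. Non-junction reads at the Lamp3 circle went from 1854 to 6251, so here ring and linear reads were both higher. Etv5 as a host had 18 and 6 reads and was 3.48-fold lower (1.32 to 10.7), a call that was lost when scaled by non-junction reads. Type 2 cells are known to store glycogen before they make surfactant, and Gbe1, the glycogen branching enzyme, had 10, 27, 114 and 12 reads over its rings, 3.65-fold higher (2.38 to 5.77). Of the Gbe1 circles shown above, the one from the first acceptor went from 27 to 70 reads and the one from the second from 0 to 38. Lpin2, a phosphatidate phosphatase, had 2 and 13 reads and was higher, and Acsl3, an acyl-CoA ligase, had 12 and 0 and was lower, though not when scaled by non-junction reads. These 3, with the glycogen gene Gbe1 among them, were the members with enough reads on the list of lipid and surfactant phospholipid synthesis.

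The matrix list had a median log2 ratio of 0.56 against 0.02 for all hosts, of which 12.4% were higher and 12.1% lower. Matrix genes moved both ways, with 4 of 14 hosts higher and 4 lower, and 2 and 3 of 11 without doubtful circles. The higher ones were Eln, Fbn1, the microfibril protein fibrillin 1, with 12, 8, 31 and 57 reads, Col3a1, a fibrillar collagen, with 18, 3, 13 and 38, and Col4a5, a basement membrane collagen, with 20, 0, 13 and 0. The lower ones were Col6a1 with 36 and 0 reads, Col6a2 with 33 and 0, both chains of collagen VI, Vcan, the proteoglycan versican, with 20 and 4, and Ltbp1, which binds latent TGF-beta, with 20 and 4. Of the list's 1144 terminal sac reads 966 were from doubtful circles, and of its 3098 alveolar reads 2714. With doubtful circles counted, the elastic fibre genes Eln and Fbn1 were highest in the alveolar library, while Vcan was highest in the canalicular one. Without doubtful circles Col3a1 and Col6a2 had too few reads to be compared and Col4a5, with 0 and 11 reads, did not pass, while Eln, Fbn1, Col6a1, Vcan and Ltbp1 remained called.

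Chromatin regulators had 39 compared hosts, 4 higher and 3 lower, with a median of -0.17, and their shares of calls were below the 12.4% and 12.1% of all hosts. Higher were Kat6b, a histone acetyltransferase, with 23, 21, 56 and 23 reads, Stag2, a cohesin subunit, with 0, 0, 20 and 0, and the Polycomb genes Suz12 with 11, 2, 12 and 0 and Eed with 9, 2, 11 and 3. The lower hosts included Chd4, a remodelling ATPase whose circle is doubtful, and Tet1, a methylcytosine dioxygenase with 9 and 2 reads that was not lower when scaled by non-junction reads. Suz12 and Eed were low in the canalicular library and like the pseudoglandular one in the terminal sac library.

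Among RNA-binding proteins and regulators of circRNA formation, 3 of 14 hosts were higher and 1 lower, against 12.4% and 12.1% of all hosts. Ptbp3 had 13, 10, 47 and 9 reads (4.06-fold, 2.02 to 9.01), and Mbnl2, a muscleblind splicing factor, had 16, 4, 23 and 13 (4.97-fold, 1.70 to 19.7). Ddx17, an RNA helicase, had 20, 5, 17 and 9. Esrp1, an epithelial splicing regulator, had 0, 13, 3 and 2 reads and was 5.02-fold lower (1.38 to 27.5), which did not hold when scaled by non-junction reads. With Etv5 it made up the 2 lower of 5 hosts on the list of lung epithelial transcription factors and progenitors, on which 0 were higher. The other 3 had larger shares in the terminal sac library but did not pass. They were Foxp1 with 19 and 33 canalicular and terminal sac reads, Foxp2 with 5 and 11 and Grhl2 with 4 and 10. The median log2 ratio of this list was 0.58 against 0.02 for all hosts. Scaled by non-junction reads, 1 host of the list was higher and 0 were lower.

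The lists of this paragraph hold few compared hosts, and 1 or 2 calls in each are to be read against the 12.4% higher and 12.1% lower of all hosts. The endothelial list had 1 of 6 hosts higher, Prex2, and its share went from 0.234% (0.183 to 0.294) to 0.478% (0.410 to 0.555). Pecam1, which marks endothelium, had 19 and 22 reads and did not pass. Of signalling genes, Wnt had 2 of 6 higher, Lrp5, a Wnt coreceptor, with 3, 4, 18 and 12 reads and Dvl2 with 0 and 47 from a doubtful circle. The TGF-beta and BMP list had 1 of 8 lower, the receptor gene Bmpr1b with 2, 17, 2 and 2 reads (9.84-fold, 2.34 to 87.8). FGF, Hedgehog and Notch genes had 1 of 5 higher, the Ras exchange factor gene Sos2 with 12 and 31 reads. Mesenchyme had 2 of 8 higher, Limch1 with 2 and 18 reads and Meis2, a homeobox factor, with 0 and 15. The smooth muscle and pericyte list had 1 of 6 higher, Prkce, a protein kinase C gene, with 7, 12, 29 and 48.

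Markers of other cell types that a lung sample could hold were sparse. The immune list had 65 and 84 reads in the canalicular and terminal sac libraries with 0 of 5 hosts called, the erythroid list 13 and 20, the neuronal list 15 and 16, the mesothelial list 12 and 10 and the type 1 epithelial list 8 and 20. The heart and striated muscle list had 131 and 133 reads, with Nebl, a nebulin family gene, higher at 12 and 39 and Slc8a1, a sodium-calcium exchanger, lower at 17 and 8, a call lost under both other scalings. The ciliated and secretory list had 35 and 61 reads with 0 of 3 called, and the glucocorticoid list 12 and 20 reads with 0 of 1. In the cartilage list Sox6 had 12 and 0 reads and among foetal growth genes Plagl1 had 11 and 0, both lower but not when scaled by non-junction reads. The part of cell makeup in the results was not tested. Of 26 hosts widely described as circRNA genes, 1 was higher and 2 were lower, against 12.4% and 12.1% of all hosts. Dcun1d4 was higher at 11 and 32 reads. Pms1, a mismatch repair gene with 46 and 25 reads, and Slc8a1 were lower, Pms1 not when scaled by non-junction reads. The share of junction reads held by this list went from 11.3% to 9.84%.

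Rings of 1 host can shift against each other with no change of the sum. Shares within a host were compared for 492 hosts with 10 or more reads in each library and more than 1 ring. A shift of 25 percentage points or more with exact 95% intervals apart was found in 68 of them (13.8%), and the median of the largest shift was 22.2 points. In Unc13b, a synaptic vesicle priming gene, exons 2 to 6 made up 8 of 25 reads (32.0%) in the canalicular library and 22 of 22 in the terminal sac library, while exons 2 to 7 went from 10 reads to 0. In Setd2, a histone H3 methyltransferase, the exon 12 ring went from 3 of 12 reads to 16 of 16, and rings from exon 3 were no longer listed. In Jarid2, a Polycomb partner, the exons 2 to 3 ring went from 2 of 16 reads to 10 of 12.

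In Sp3 the ring of exons 4 to 5 went from 8 of 32 reads (25%) to 16 of 19 (84.2%), as the exon 4 ring went from 18 reads to 3. Smad2, a transducer of TGF-beta signals, had 10 of 13 reads in exons 3 to 11 and then 0 of 18. Lsm14a, a P-body protein, had 10 of 13 reads in exons 3 to 8 and then 0 of 12, and Ppp2r3a, a phosphatase regulatory subunit, went from 2 of 11 to 15 of 15 in exons 3 to 6. In Depdc1b, the ring of exons 3 to 11 had 17 of 33 reads and then 0 of 11, and that of exons 3 to 6 had 5 and then 8. Gpbp1 exons 7 to 8, with 30 of 30 reads and then 0 of 14, and 1 of the Arf3 rings are doubtful circles. These shifts rest on 10 to 33 reads a library.

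**Figure D5:**
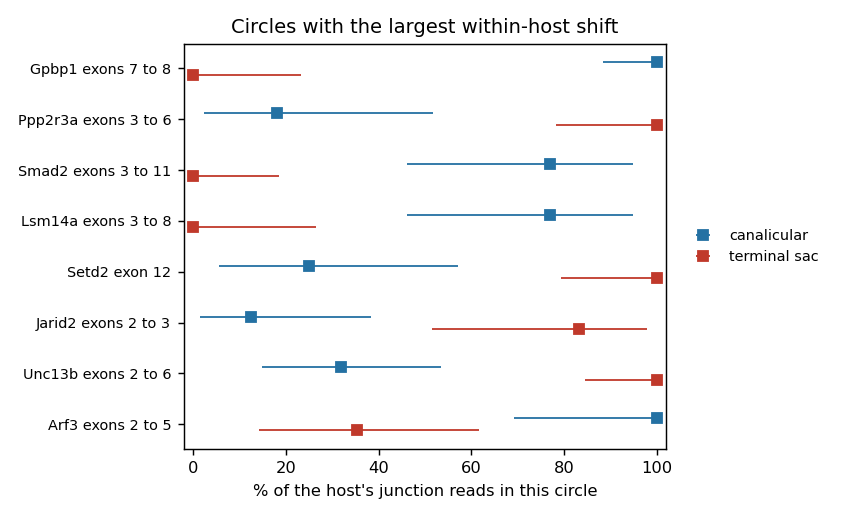
Share of a host's junction reads (percent) held by the named circle in the canalicular and terminal sac libraries, with exact 95% intervals, for the 8 hosts with the largest shift between the libraries. Intervals do not overlap within a host, and the Ppp2r3a, Setd2, Jarid2 and Unc13b circles gained while the others lost.

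By class, exon-type circRNAs held 93.6% of canalicular and 94.0% of terminal sac junction reads, introns 3.74% and 3.82%, and intergenic ones 2.63% and 2.21%. Of 73 compared circles with ends 50 kb or more apart, 5 were higher and 15 lower, against 8.94% and 11.2% of all 1208.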

How the data were processed

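Total RNA of C57BL/6 lung was sequenced, and 1 list of circRNAs was deposited per library. Named in the submitters' processing notes, with no role, are BWA, HISAT2 2.0.5, HTSeq, StringTie, cutadapt and the mm10 build. The deposited read columns, junction and non-junction, hold raw counts, per the file headers. The deposited ratio column holds a fraction, printed here as a percentage. A blank non-junction count was read as 0. Chromosome, start and end together identified a circRNA, and 4647 of 4653 host identifiers were found in GENCODE M21.

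Shares of listed junction reads were compared with exact conditional binomial intervals, and junction ratios by odds ratios, adding 0.5 to every count, with the interval of Woolf. Shares within hosts and of lists carry exact Clopper-Pearson intervals. Doubtful circles had an end repeat of 6 bases or more, or fewer distinct alignment patterns than 0.2 of their reads over 4 libraries. Circles described were ranked by the interval end nearest to 1, a host once per direction, besides those with most reads, the largest changes of ratio and of within-host share, and list members with most reads; a few other list members, Morc3 exons 6 to 8, Mkln1 exons 2 to 6, Depdc1b and hosts with most gained or lost rings were chosen after their values were seen. The members and lists were chosen with earlier results of these data known. Calculations used Python 3.11.15, numpy 2.4.6, pandas 2.3.3, scipy 1.17.1 and matplotlib 3.10.9. The call rule was run on simulated Poisson counts, in which only circRNAs with many reads were changed. That simulation held no PCR copies and does not cover calls that rest on few reads. A lower host of the chromatin list is not reported here.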

Additional observations from a re-analysis of the deposited data

How the results depend on the processing

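Depth limits what can be called, since 10 reads spread over 2 libraries need a large ratio for the interval to exclude 1. Under the median of ratios the counts were 112 circRNAs higher and 131 lower, within 1.5 times of 108 and 135. Scaling by non-junction reads of shared circRNAs gave 265 higher and 57 lower circRNAs, and 316 higher and 49 lower hosts. A minimum of 20 reads gave 67 higher and 81 lower circRNAs and 84 lower hosts, as fewer were compared, and 29 hosts with a within-host shift when each library had 20 reads of the host. The median difference of the junction ratio was 0.017, 0.029 with at least 20 reads and 0.007 with no minimum, and it kept its sign in each. A minimum of 5 reads left the counts unchanged, which was fixed in advance, since fewer than 10 reads cannot pass the call rule. The remaining alternatives were a 3-fold threshold, circRNAs without the doubtful ones, those listed in both libraries, merged junctions and exon-type circRNAs. They moved no count by more than 1.5 times. Nor did the other alternatives of the odds, of the summed reads at shared circRNAs and of the alveolar against pseudoglandular medians. Of 110 described circles and hosts, 1 lost its call under the median of ratios and 11 under non-junction scaling, and none of those called changed direction. Of those not called, the Tulp4, Mettl9, Nfix, Bub1b and Strn3 circles turned from lower to higher under non-junction scaling, and Strn3 also under the median of ratios. Scaling by non-junction reads of all listed circRNAs, which was chosen after seeing the data, gave 89 higher and 160 lower. The odds ratio of summed reads, 1.37 at shared circRNAs, was 0.954 over all circRNAs listed in either library and 1.05 without Sftpc, both also chosen after seeing the data. Also chosen after seeing the data was the spliced length of circles listed in both libraries and not doubtful, with medians of 494 bases for higher and 847.5 for lower circles, and the cell-cycle median without Ezh2. No paired analysis was possible because each stage has 1 library.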
